A study of Homo sapiens with 3 samples.

Results

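The long arm of human chromosome 16, written 16q, was followed through 45 of its genes in Kelly, a cell line from a human neuroblastoma in which MYCN is amplified and ALK carries an activating mutation. These are known traits of the line, and whether each library still carries them was not analysed here. The 45 genes were picked by name, all of them on 16q, after earlier results of these data were known. They are 45 of 32738 gene rows in the tables and 45 of the 663 rows placed on 16q. Their differences between libraries are therefore given as a description, with no test. Single-cell RNA was measured in 3 states of response to TAE684, an inhibitor of the ALK kinase. Cells of the sensitive library were kept in DMSO, the solvent of the drug, and TAE684 was present at 500 nM for the intermediate resistant and at 1 µM for the fully resistant library. Each state had 1 library, so resistance, drug dose and differences between cultures cannot be told apart.

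Genes of a chromosome arm have no common function, but they lie on the same molecule and are gained or lost together when a cell gains or loses that arm. RNA of most genes then follows the number of copies, although genes with strong own regulation depart from their neighbours. Loss of 16q is a recurrent change in several human tumours, among them breast cancer and Wilms tumour. DNA was not analysed here, and the part of copy number in the values below was not tested.

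A barcode was taken as a cell at 5000 or more UMIs (distinct RNA molecules), 500 or more genes and at most 20% of UMIs from mitochondrially encoded genes. This left 5415 sensitive, 6288 intermediate resistant and 6331 fully resistant cells, with 95119772 to 106163582 UMIs per library and a median of 15660.5 to 16014 UMIs per cell. A level is given as CPM, the UMIs of a gene summed over the cells of a library, per 1000000 UMIs of those cells. Intervals in parentheses are 95% intervals that cover counting error only, and CPM compare 1 gene between libraries, not genes with each other. Between 38 and 62 barcodes were shared by 2 libraries, against 46.2 to 54.0 expected from random draws. The 10 noradrenergic neuroblastoma markers were all detected in every library, with a summed CPM of 3385 in sensitive, 4212 in intermediate resistant and 2441 in fully resistant cells. MYCN, 1 of the 10, had 1242 CPM in sensitive, 413 CPM in intermediate resistant and 446 CPM in fully resistant cells. Of the immune and epithelial markers, CD3E and CDH1 had no UMI in any library. Barcodes with at most 100 UMIs, which hold free RNA, carried the 45 genes at 2703 CPM in the sensitive, 1728 CPM in the intermediate resistant and 1437 CPM in the fully resistant library.

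The promoters of 3 members are shown because these genes behaved unlike each other. COQ9 was the lowest in fully resistant relative to sensitive cells among the members with 20 CPM or more in a library. ORC6 was nearly equal in intermediate resistant and sensitive cells. NQO1, which stayed under 20 CPM in every library, was low in the intermediate resistant library alone. The sequences run from 250 bases before to 50 bases after the start of the gene on its own strand, from RefSeq on build GRCh38.p14, and CpG dinucleotides are in capitals.
COQ9 (chr16:57447229-57447528, plus strand): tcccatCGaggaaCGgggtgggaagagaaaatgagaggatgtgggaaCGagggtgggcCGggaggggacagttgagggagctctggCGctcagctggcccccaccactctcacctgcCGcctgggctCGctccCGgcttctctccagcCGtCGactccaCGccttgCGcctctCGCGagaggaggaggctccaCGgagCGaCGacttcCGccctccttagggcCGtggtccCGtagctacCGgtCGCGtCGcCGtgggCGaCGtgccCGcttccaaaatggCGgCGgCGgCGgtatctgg
ORC6 (chr16:46689409-46689708, plus strand): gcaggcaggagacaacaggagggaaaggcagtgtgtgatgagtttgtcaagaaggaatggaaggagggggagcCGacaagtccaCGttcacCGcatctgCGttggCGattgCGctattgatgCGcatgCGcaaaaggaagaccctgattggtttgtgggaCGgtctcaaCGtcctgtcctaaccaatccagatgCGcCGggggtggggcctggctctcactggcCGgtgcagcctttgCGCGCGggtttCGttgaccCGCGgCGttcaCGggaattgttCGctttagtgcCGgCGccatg
NQO1 (chr16:69726511-69726810, minus strand): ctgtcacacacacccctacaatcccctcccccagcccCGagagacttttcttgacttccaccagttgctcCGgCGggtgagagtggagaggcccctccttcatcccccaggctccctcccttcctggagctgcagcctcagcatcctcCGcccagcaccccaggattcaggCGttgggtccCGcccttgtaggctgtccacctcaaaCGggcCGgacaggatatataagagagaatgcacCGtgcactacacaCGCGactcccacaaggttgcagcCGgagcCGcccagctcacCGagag
The COQ9 window holds 32 CpG, the ORC6 window 24 and the NQO1 window 14. For 39 of the 45 genes a promoter window was found, 51 windows in all, with a median of 29 CpG against 14 over all 35116 windows. The E-box CACGTG, the site of MYC family proteins, which reads the same on both strands, stood in 7.84% of the members' windows and in 7.26% of all windows. The motif TGACNNNGC, the core of the antioxidant response element bound by NRF2, was searched on both strands and stood in 17.6% of the members' and 13.3% of all windows. None of the 3 printed windows holds either motif, and bases further than 250 before the start were not searched. ORC6 and VPS35 start head to head on opposite strands, and their windows overlap by 20 bases, while those of COQ9 and CIAPIN1 overlap by 193 bases.

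Summed over the 45 genes, the level was 2520 CPM (2509 to 2530) in sensitive, 1561 CPM (1553 to 1568) in intermediate resistant and 1392 CPM (1385 to 1399) in fully resistant cells. The sum was 1.81-fold lower (1.8 to 1.82) in fully resistant than in sensitive cells and 1.61-fold lower (1.6 to 1.62) in intermediate resistant than in sensitive cells. Between the resistant states it differed less and was 1.12-fold lower (1.11 to 1.13) in fully resistant than in intermediate resistant cells. All 43 members with a CPM of at least 1 in every library were highest in sensitive cells. TERF2IP turned against intermediate resistant cells when cells high in G2 and M phase genes were left out. For NQO1 the ratio of fully resistant to sensitive cells was 0.986 (0.919 to 1.06), within counting error. Among all genes with 20 CPM or more in a compared library, 2148 of 5342 were lower in fully resistant than in sensitive cells. In intermediate resistant against sensitive cells 3048 of 5045 were lower by any amount. Between the resistant libraries 1492 of 5165 were lower in fully resistant cells. These counts over all genes use the limit of 20 CPM, unlike the 43 members. The share of all genes that were highest in sensitive cells is not given here. Of the 43 members, 33 were lower in fully resistant than in intermediate resistant cells. The other 10 of the 43 were lowest in the intermediate resistant library, but for 6 of these (CHMP1A, CIAPIN1, CMTM3, MPHOSPH6, NAE1 and NUP93) the order of the resistant libraries turned under at least 1 other scaling or choice of cells. KLHL36 and PIEZO1, the remaining members, stayed below 1 CPM in every library.

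A gene was measured in a comparison when 1 of the libraries compared had 20 CPM or more of it, and it was counted as lower or higher from 1.5-fold on. Of the 45 members, 30 were measured in the comparisons with sensitive cells. In fully resistant against sensitive cells 25 of 30 members were lower and 0 were higher, where 12.2% of all 5342 measured genes were lower and 14.7% higher. In intermediate resistant against sensitive cells 18 of 30 were lower and 0 higher, where 10.2% of all 5045 measured genes were lower and 4.72% higher. Between fully resistant and intermediate resistant cells 2 of 23 were lower and 1 was higher, where 6.35% of 5165 genes were lower and 12.4% higher. At 2-fold, 10 of 30 were lower in fully resistant than in sensitive cells and 4 of 30 in intermediate resistant than in sensitive cells, where 5.56% and 3.61% of all measured genes were. Between the resistant states 0 of 23 were 2-fold lower in fully resistant cells, where 2.83% of all measured genes were. These contrasts were known when the members were picked, so nothing is read from the counts. The comparisons with the sensitive library share that library. The median log2 ratio over the measured members was -0.86 in fully resistant against sensitive cells, -0.69 in intermediate resistant against sensitive cells and -0.25 in fully resistant against intermediate resistant cells. Over all measured genes the medians were 0.10, -0.08 and 0.17 for the same comparisons. Taken relative to all genes, the members' medians were -0.96, -0.61 and -0.42.

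**Figure D1:**
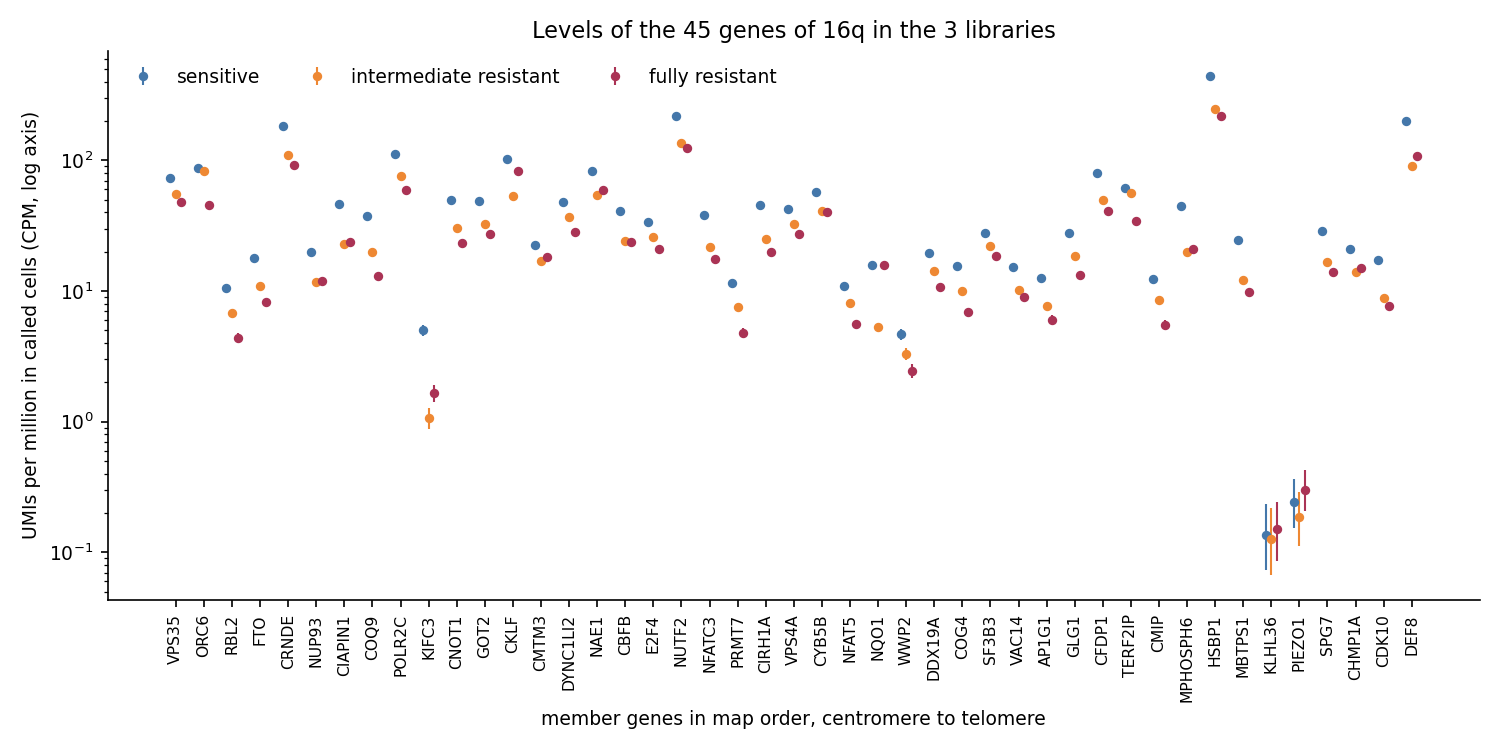
Level of each of the 45 genes in the 3 libraries, in CPM on a log axis, with 95% Poisson intervals, in map order from the centromere to the telomere. The sensitive library is the highest for 43 genes, for NQO1 only within counting error of the fully resistant library. KLHL36 and PIEZO1 lie below 1 CPM in every library.

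Members of transcription and RNA processing formed the largest group with that of transport, and all 8 of their measured genes were lower in fully resistant than in sensitive cells. CRNDE, a long non-coding RNA expressed in development and in many tumours, had 184 CPM in sensitive, 110.5 CPM in intermediate resistant and 91.5 CPM in fully resistant cells. It was 2.01-fold lower (1.96 to 2.06) in fully resistant and 1.66-fold lower (1.62 to 1.7) in intermediate resistant than in sensitive cells. POLR2C, the RPB3 subunit of RNA polymerase II, had 112 CPM in sensitive, 76.3 CPM in intermediate resistant and 59.3 CPM in fully resistant cells, which is 1.88-fold lower (1.83 to 1.94) in fully resistant than in sensitive cells. The level of both genes lay in an order of sensitive, intermediate resistant, fully resistant. CIRH1A, a nucleolar protein of ribosomal RNA processing, had 45.5 CPM in sensitive, 24.9 CPM in intermediate resistant and 19.9 CPM in fully resistant cells and was 2.29-fold lower (2.17 to 2.41) in fully resistant than in sensitive cells. CNOT1, the scaffold of the CCR4-NOT complex that shortens poly(A) tails, had 49.8 CPM in sensitive, 30.6 CPM in intermediate resistant and 23.5 CPM in fully resistant cells. NFATC3, a calcium-responsive transcription factor, had 38.2 CPM in sensitive, 21.6 CPM in intermediate resistant and 17.5 CPM in fully resistant cells. These 3 genes were at least 1.5-fold lower in both resistant libraries. MPHOSPH6, which binds the RNA exosome, had 44.7 CPM in sensitive, 20.1 CPM in intermediate resistant and 21 CPM in fully resistant cells, so that both resistant libraries lay near a common level. CBFB, the partner of RUNX factors, showed the same shape, with 41.4 CPM in sensitive, 24.2 CPM in intermediate resistant and 23.9 CPM in fully resistant cells. SF3B3, a subunit of the U2 splicing particle, had 27.9 CPM in sensitive, 22 CPM in intermediate resistant and 18.5 CPM in fully resistant cells and was the least changed of the group in both comparisons with sensitive cells.

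A further 4 members of that group were under the minimum of 20 CPM in every library. FTO, an RNA demethylase, had 18 CPM in sensitive, 10.9 CPM in intermediate resistant and 8.19 CPM in fully resistant cells. PRMT7, an arginine methyltransferase, had 11.6 CPM in sensitive, 7.55 CPM in intermediate resistant and 4.78 CPM in fully resistant cells and was 2.42-fold lower (2.18 to 2.7) in fully resistant than in sensitive cells. DDX19A, an RNA helicase of mRNA export, had 19.5 CPM in sensitive, 14.1 CPM in intermediate resistant and 10.7 CPM in fully resistant cells, with the limit that its near copy DDX19B lies beside it and reads may be split between them. The osmotic stress factor NFAT5 had 10.9 CPM in sensitive, 8.15 CPM in intermediate resistant and 5.57 CPM in fully resistant cells. All 4 followed the same order of states as CRNDE.

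Among members of nuclear transport, vesicle traffic and motors, 7 of 8 measured genes were lower in fully resistant than in sensitive cells and 3 of 8 in intermediate resistant than in sensitive cells. NUTF2, which carries Ran into the nucleus, had 220.1 CPM in sensitive, 136 CPM in intermediate resistant and 124 CPM in fully resistant cells and was 1.78-fold lower (1.74 to 1.81) in fully resistant than in sensitive cells. DEF8, a protein of lysosome positioning, had 199 CPM in sensitive, 91.2 CPM in intermediate resistant and 109 CPM in fully resistant cells. DEF8 was 2.18-fold lower (2.13 to 2.24) in intermediate resistant than in sensitive cells, and 1.19-fold higher (1.16 to 1.23) in fully resistant than in intermediate resistant cells. VPS35, the core of the retromer that returns cargo from endosomes, had 73.1 CPM in sensitive, 55.5 CPM in intermediate resistant and 48.2 CPM in fully resistant cells. GLG1, a Golgi glycoprotein, had 27.8 CPM in sensitive, 18.6 CPM in intermediate resistant and 13.3 CPM in fully resistant cells. DYNC1LI2, a light intermediate chain of dynein, had 48.4 CPM in sensitive, 37.1 CPM in intermediate resistant and 28.3 CPM in fully resistant cells. The decrease of these 3 was spread over both steps. VPS4A, the ATPase that takes ESCRT-III apart, had 42.2 CPM in sensitive, 32.5 CPM in intermediate resistant and 27.5 CPM in fully resistant cells, and CHMP1A, an ESCRT-III subunit, had 20.8 CPM in sensitive, 13.9 CPM in intermediate resistant and 15 CPM in fully resistant cells. NUP93, of the nuclear pore, had 20.1 CPM in sensitive, 11.7 CPM in intermediate resistant and 12 CPM in fully resistant cells. Each of CHMP1A and NUP93 had nearly the same level in both resistant libraries.

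COG4, of the Golgi tethering complex, had 15.5 CPM in sensitive, 10.04 CPM in intermediate resistant and 6.88 CPM in fully resistant cells, and the AP-1 adaptor subunit AP1G1 had 12.6 CPM in sensitive, 7.7 CPM in intermediate resistant and 6.04 CPM in fully resistant cells. VAC14, the scaffold of the PIKFYVE lipid kinase complex, had 15.2 CPM in sensitive, 10.2 CPM in intermediate resistant and 8.98 CPM in fully resistant cells. All 3 were below 20 CPM and in the order sensitive, intermediate resistant, fully resistant. The kinesin KIFC3 had 5.0 CPM in sensitive, 1.06 CPM in intermediate resistant and 1.65 CPM in fully resistant cells and was the lowest of all 45 by ratio, 3.04-fold lower (2.55 to 3.63) in fully resistant than in sensitive cells and 4.7-fold lower (3.81 to 5.85) in intermediate resistant than in sensitive cells.

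All 4 measured cell cycle and DNA members were lower in fully resistant than in sensitive cells, and 1 of 4 was lower in intermediate resistant than in sensitive cells. ORC6, a subunit of the origin recognition complex that licenses replication, had 87.2 CPM in sensitive, 82.3 CPM in intermediate resistant and 45.8 CPM in fully resistant cells. ORC6 was 1.9-fold lower (1.84 to 1.97) in fully resistant than in sensitive cells, yet only 1.06-fold lower (1.03 to 1.09) in intermediate resistant than in sensitive cells, and 1.8-fold lower (1.73 to 1.86) in fully resistant than in intermediate resistant cells. TERF2IP, the telomere protein RAP1, had 61.8 CPM in sensitive, 56.8 CPM in intermediate resistant and 34.6 CPM in fully resistant cells and was 1.64-fold lower (1.57 to 1.71) in fully resistant than in intermediate resistant cells. ORC6 and TERF2IP were the 2 members counted as lower in that comparison. CFDP1, a chromatin protein, had 80.1 CPM in sensitive, 50.1 CPM in intermediate resistant and 40.8 CPM in fully resistant cells, and E2F4, a repressor of cell cycle genes, had 33.6 CPM in sensitive, 25.8 CPM in intermediate resistant and 21.2 CPM in fully resistant cells. RBL2, the pocket protein p130 that acts with E2F4, had 10.6 CPM in sensitive, 6.81 CPM in intermediate resistant and 4.37 CPM in fully resistant cells and was 2.42-fold lower (2.17 to 2.71) in fully resistant than in sensitive cells. CDK10, a cyclin-dependent kinase, had 17.2 CPM in sensitive, 8.88 CPM in intermediate resistant and 7.75 CPM in fully resistant cells. Over the 18 genes of the G2 and M phases the summed level was 2123 CPM in sensitive, 2099 CPM in intermediate resistant and 2606 CPM in fully resistant cells. Over the 14 S phase genes found it was 1022 CPM in sensitive, 972 CPM in intermediate resistant and 1080 CPM in fully resistant cells. A link between the levels of the cell cycle members and the phases of the cells was not tested.

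Mitochondrial and redox members held the greatest measured decrease and a clear departure from it. COQ9, a lipid-binding protein of coenzyme Q synthesis, had 37.7 CPM in sensitive, 19.99 CPM in intermediate resistant and 13.1 CPM in fully resistant cells and was 2.88-fold lower (2.71 to 3.07) in fully resistant than in sensitive cells. CIAPIN1, of cytosolic iron-sulphur assembly, had 46.7 CPM in sensitive, 23 CPM in intermediate resistant and 23.6 CPM in fully resistant cells. CIAPIN1 was nearly level between the resistant libraries. GOT2, the mitochondrial aspartate aminotransferase, had 49.2 CPM in sensitive, 32.6 CPM in intermediate resistant and 27.2 CPM in fully resistant cells. SPG7, the paraplegin subunit of a mitochondrial protease, had 28.8 CPM in sensitive, 16.7 CPM in intermediate resistant and 14 CPM in fully resistant cells. These 4 were at least 1.5-fold lower in both resistant libraries. CYB5B, a cytochrome b5 of the outer mitochondrial membrane, had 57.7 CPM in sensitive, 41 CPM in intermediate resistant and 40.6 CPM in fully resistant cells and missed that fold in both. NQO1, a quinone reductase controlled by NRF2, had 16 CPM in sensitive, 5.27 CPM in intermediate resistant and 15.7 CPM in fully resistant cells. It was 3.03-fold lower (2.74 to 3.35) in intermediate resistant than in sensitive cells, while fully resistant and sensitive cells were within their counting intervals, at a ratio of 0.986 (0.919 to 1.06).

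Of the protein handling members, 2 of 3 measured genes were lower in fully resistant than in sensitive cells and 3 of 3 in intermediate resistant than in sensitive cells. HSBP1, which binds heat shock factor 1, had 441 CPM in sensitive, 246 CPM in intermediate resistant and 219 CPM in fully resistant cells and was 2.01-fold lower (1.98 to 2.05) in fully resistant and 1.79-fold lower (1.76 to 1.82) in intermediate resistant than in sensitive cells. MBTPS1, the site-1 protease that cleaves SREBP and ATF6, had 24.7 CPM in sensitive, 12.1 CPM in intermediate resistant and 9.84 CPM in fully resistant cells and was 2.5-fold lower (2.33 to 2.7) in fully resistant than in sensitive cells. NAE1, of the enzyme that activates NEDD8, had 82.6 CPM in sensitive, 54.4 CPM in intermediate resistant and 59.9 CPM in fully resistant cells and was 1.38-fold lower (1.33 to 1.43) in fully resistant and 1.52-fold lower (1.47 to 1.57) in intermediate resistant than in sensitive cells. WWP2, a ubiquitin ligase, had 4.68 CPM in sensitive, 3.32 CPM in intermediate resistant and 2.46 CPM in fully resistant cells. KLHL36, a kelch protein, had 13 UMIs in sensitive, 13 in intermediate resistant and 16 in fully resistant cells, too few to give an order of the states.

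Of the 4 membrane and signalling members 2 were measured, and 0 of 2 passed 1.5-fold in fully resistant against sensitive cells. CKLF, a chemokine-like factor, had 103 CPM in sensitive, 53.1 CPM in intermediate resistant and 83.1 CPM in fully resistant cells. It was 1.24-fold lower (1.2 to 1.27) in fully resistant than in sensitive cells, 1.93-fold lower (1.87 to 2.0) in intermediate resistant than in sensitive cells, and 1.56-fold higher (1.51 to 1.62) in fully resistant than in intermediate resistant cells. CKLF was the 1 member counted as higher in that last comparison. CMTM3, its neighbour and relative, had 22.7 CPM in sensitive, 16.9 CPM in intermediate resistant and 18.3 CPM in fully resistant cells and was 1.24-fold lower (1.16 to 1.31) in fully resistant than in sensitive cells. CMIP, a signalling adaptor under 20 CPM in every library, had 12.3 CPM in sensitive, 8.57 CPM in intermediate resistant and 5.5 CPM in fully resistant cells and was 2.24-fold lower (2.03 to 2.48) in fully resistant than in sensitive cells. The mechanosensitive channel PIEZO1 had 23 UMIs in sensitive, 19 in intermediate resistant and 32 in fully resistant cells, with ratio intervals that include 1.

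The other genes of 16q were lower as well. Of 73 measured, 62 were at least 1.5-fold lower in fully resistant than in sensitive cells and 1 was higher, with a median log2 ratio of -0.87. In intermediate resistant against sensitive cells 43 of 72 were lower, with a median of -0.71, and in fully resistant against intermediate resistant cells 13 of 51 were lower, with a median of -0.19. The short arm 16p stayed near all genes, with medians of 0.10, -0.04 and 0.15 over 129 to 135 genes in the same 3 comparisons. The 3 lowest ratios on 16q, at a log2 ratio of -4.68 to -4.22 in fully resistant against sensitive cells, were those of DOK4, an adaptor of receptor kinases, MT2A, a metallothionein, and MMP2, a gelatinase. DOK4 had 370.1 CPM in sensitive, 99.3 CPM in intermediate resistant and 14.5 CPM in fully resistant cells. MT2A had 20.6 CPM in sensitive, 6.16 CPM in intermediate resistant and 0.923 CPM in fully resistant cells, and MMP2 had 42.3 CPM in sensitive, 8.44 CPM in intermediate resistant and 2.26 CPM in fully resistant cells. All 3 were lowest in fully resistant cells. The noradrenaline transporter SLC6A2 had 63.4 CPM in sensitive, 34.7 CPM in intermediate resistant and 4.68 CPM in fully resistant cells, at a log2 ratio of -3.76 in fully resistant against sensitive cells. EXOC3L1 and GNAO1, the alpha subunit of the Go protein, followed at -3.38 and -2.58. These genes lie far below the band of their neighbours.

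DPEP3, a dipeptidase gene, was the 1 other 16q gene counted as higher in fully resistant than in sensitive cells, and it had 0.284 CPM in sensitive, 0.0878 CPM in intermediate resistant and 20.3 CPM in fully resistant cells. Next from the top came MAP1LC3B, the autophagy protein LC3B, SPATA33, MVD, of the mevalonate pathway, ATMIN and TMEM170A, at log2 ratios of -0.36 to -0.49, which are all below 0. COX4I1, a subunit of cytochrome c oxidase, had 904 CPM in sensitive, 449 CPM in intermediate resistant and 439 CPM in fully resistant cells. CTCF, the chromatin insulator protein, had 67.2 CPM in sensitive, 47.4 CPM in intermediate resistant and 45.4 CPM in fully resistant cells, a log2 ratio of -0.57 in fully resistant against sensitive cells. COX4I1 and CTCF thus had nearly equal levels in both resistant libraries. CYBA, of the NADPH oxidase, had 42 CPM in sensitive, 29.9 CPM in intermediate resistant and 15.4 CPM in fully resistant cells. COG8, of the same tethering complex as COG4, had 15.2 CPM in sensitive, 9.31 CPM in intermediate resistant and 6.32 CPM in fully resistant cells, and the shelterin protein TERF2, partner of TERF2IP, had 15.2 CPM in sensitive, 8.8 CPM in intermediate resistant and 9.49 CPM in fully resistant cells. CYBA and COG8 were lowest in fully resistant cells. TUBB3, a neuronal tubulin, had 2.42 CPM in sensitive, 1.16 CPM in intermediate resistant and 1.21 CPM in fully resistant cells. CYLD, a deubiquitinase, had 7.15 CPM in sensitive, 8.15 CPM in intermediate resistant and 3.99 CPM in fully resistant cells and was the 1 of the genes named here that was highest in intermediate resistant cells.

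Over the 41 chromosome arms with at least 20 measured genes, 16q had the second lowest median in fully resistant against sensitive cells, at -0.87, behind 9p at -0.96 and before 10p at -0.81. In intermediate resistant against sensitive cells 16q was second at -0.70, behind 10p at -1.06 and before 22q at -0.58. Between the resistant states 16q was at -0.24, behind 9p at -0.81 and 3p at -0.46. Arm medians of this size were therefore not particular to 16q, and the order of arms changed with the comparison.

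**Figure D2:**
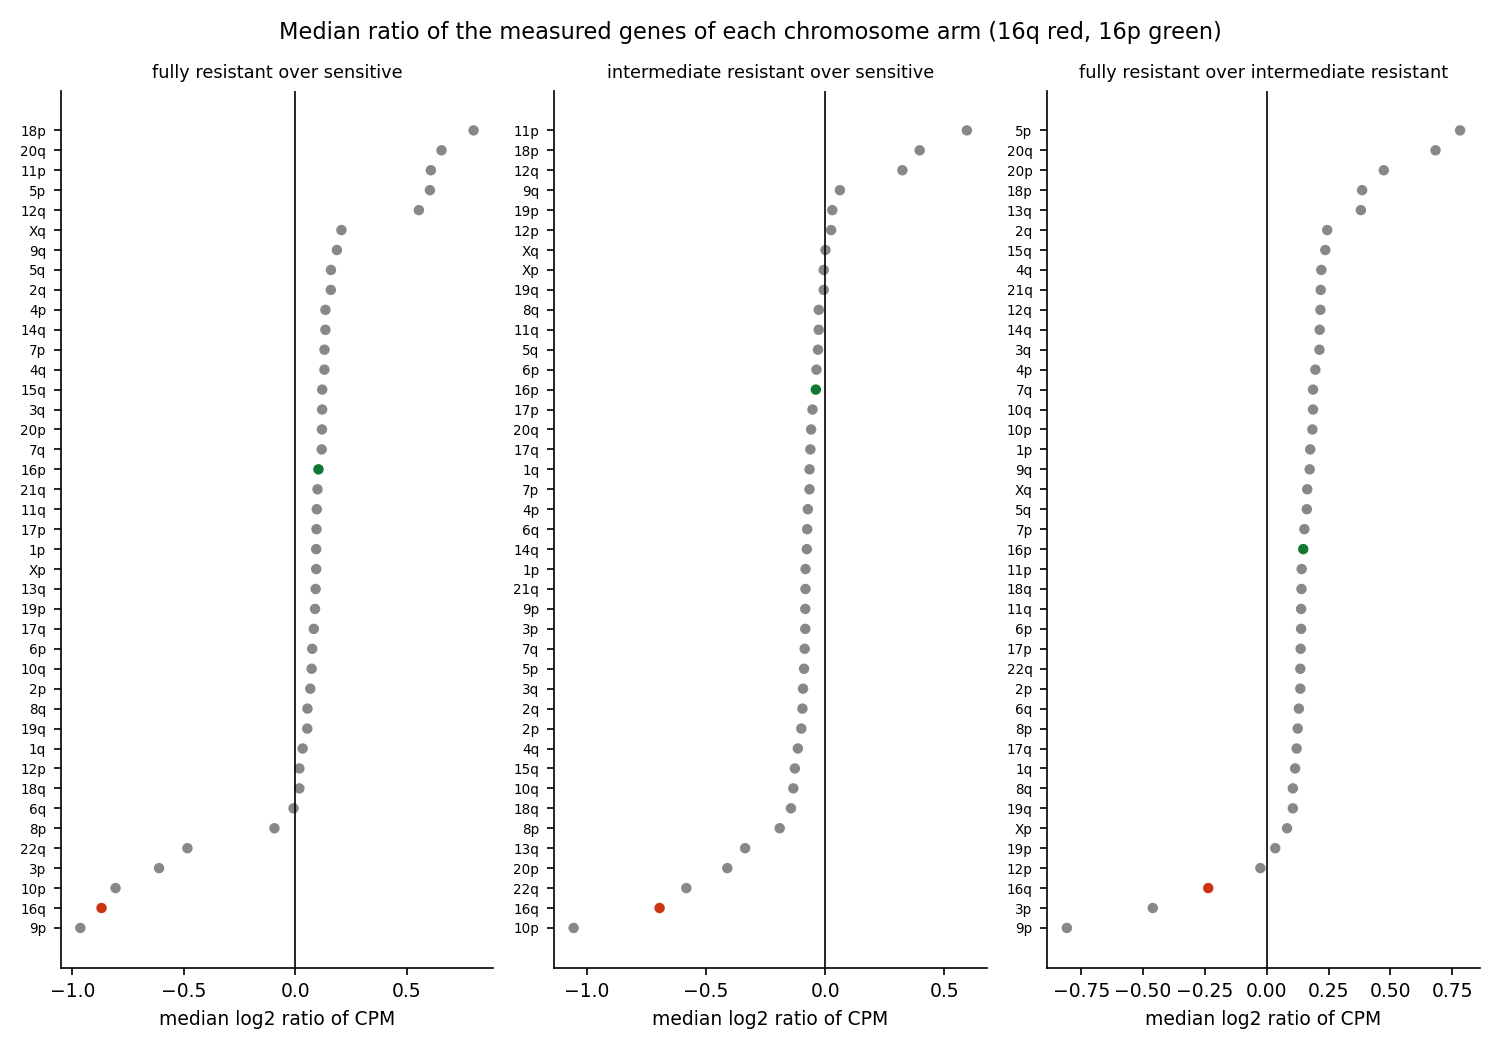
Median log2 ratio of CPM over the measured genes of each of 41 chromosome arms, for the 3 comparisons, with 16q in red and 16p in green. On 16q the median is -0.87 in fully resistant against sensitive cells, -0.70 in intermediate resistant against sensitive cells and -0.24 in fully resistant against intermediate resistant cells, and 16p lies among the other arms.

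**Figure D3:**
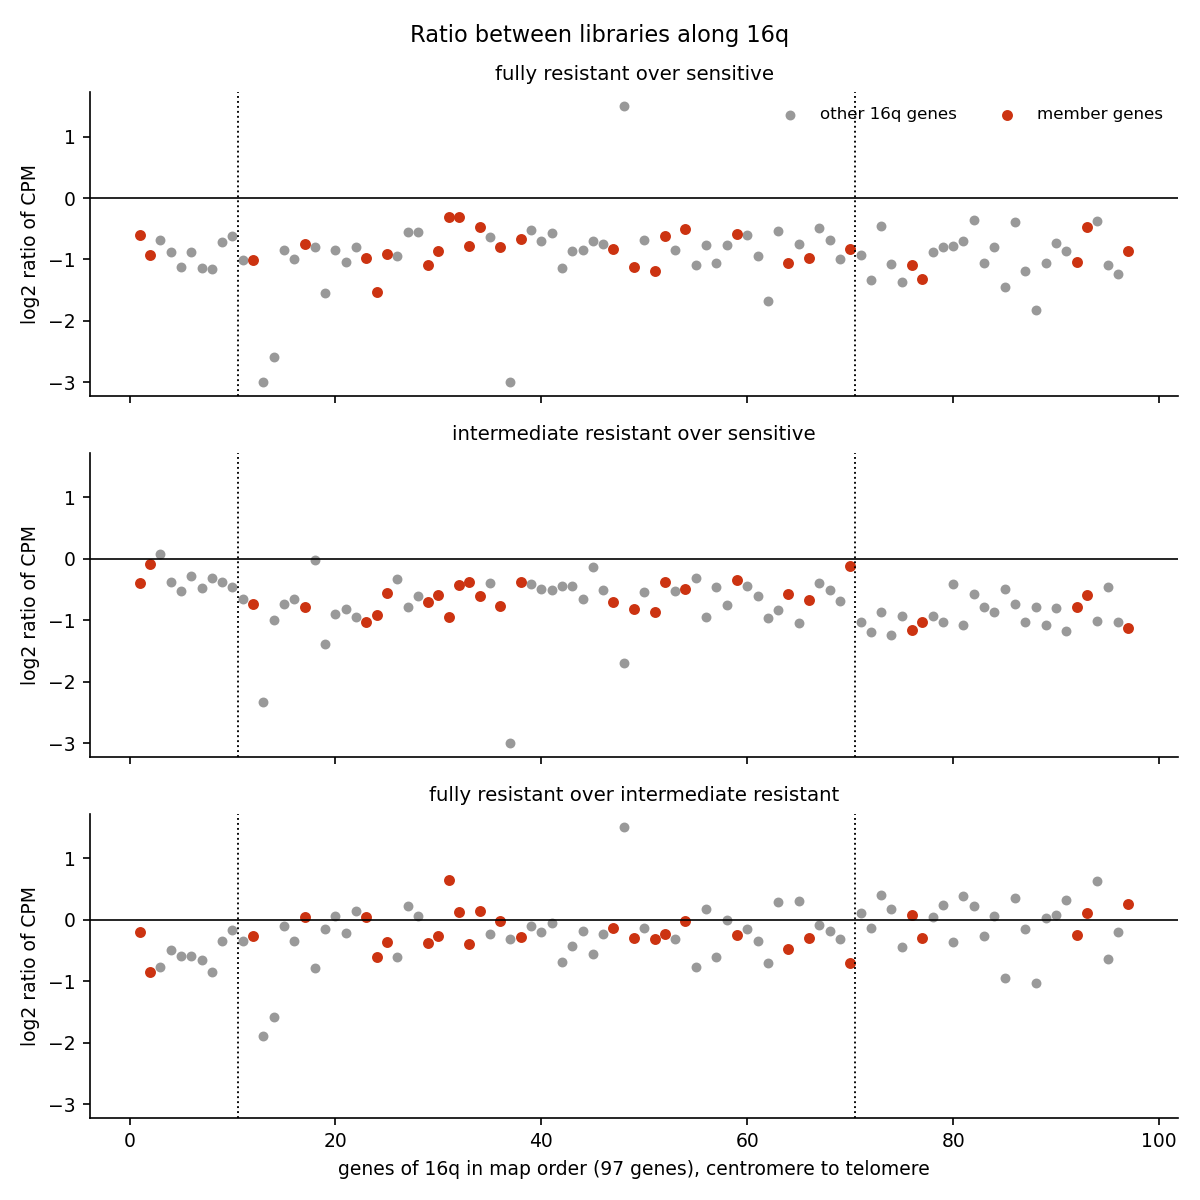
Log2 ratio of CPM of 97 genes of 16q in map order from the centromere, for the 3 comparisons, with members in red and other genes in grey; dotted lines are the borders described further on, and 5 points are drawn at an axis limit. Of the 103 measured 16q genes, DOK4, MT2A, SLC6A2, COX4I1, RPL13 and the member HSBP1 are not drawn. In fully resistant against sensitive cells most of the drawn genes form a flat band near -0.87. In intermediate resistant against sensitive cells the band lies higher next to the centromere and lower next to the telomere.

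Genes elsewhere in the genome whose proteins work with those of the members were set beside them. Of 117 listed partners, 115 had a single row outside 16q, such as other subunits of RNA polymerase II, the exosome, the CCR4-NOT complex and the retromer. Of 73 measured partners, 2 were at least 1.5-fold lower in fully resistant than in sensitive cells and 9 were higher, with a median log2 ratio of 0.18. In intermediate resistant against sensitive cells 0 of 72 were lower and 2 higher, with a median of -0.03. Between fully resistant and intermediate resistant cells 2 of 71 were lower and 5 higher, with a median of 0.18. The 10 measured partners of POLR2C had a median of 0.35 in fully resistant against sensitive cells, against -0.91 for POLR2C itself. The 9 exosome genes had a median of 0.10, against -1.09 for MPHOSPH6. For VPS35 the 4 measured partners had a median of 0.29, against -0.60 for VPS35. These groups are examples, and others had medians below 0 in the same comparison. The 4 measured partners of AP1G1 were at -0.36 and the 4 of COQ9 at -0.20. ORC6, COG4 and MBTPS1 had 1 measured partner each, at -0.36, -0.39 and -0.19. The remaining groups with a measured partner had medians above 0.

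Cells of a library can share a shift or differ in it, so the summed UMIs of the 45 genes were counted per cell after each cell was thinned to 9000 UMIs. Cells with fewer UMIs were left out, which were 467 sensitive, 376 intermediate resistant and 407 fully resistant cells. The sum ranged from 12 to 35 UMIs over the central 95% of sensitive cells, with a median of 22. In intermediate resistant cells it ranged from 5 to 31 with a median of 13, and in fully resistant cells from 5 to 21 with a median of 12. The 2 resistant libraries thus had nearly the same lower limit and median, and the intermediate resistant one had a long upper tail. The variance of the sum divided by its mean, which is 1 for counting noise alone, was 1.57 in sensitive, 3.0 in intermediate resistant and 1.38 in fully resistant cells. Once counting noise was taken off, the coefficient of variation between cells was 15.8% in sensitive, 37.7% in intermediate resistant and 17.4% in fully resistant cells. For the 603 other 16q genes, which exclude ribosomal protein and very high genes, it was 12.5% in sensitive, 31.1% in intermediate resistant and 14.97% in fully resistant cells. Over 40 other chromosome arms in intermediate resistant cells this coefficient had a median of 16.8% and reached 33.6% on 20p and 31.2% on 13q. In sensitive cells the other arms had a median of 12.1% and reached 22.6% on 8p, and in fully resistant cells a median of 15.2% and a highest value of 20.2% on 18p.

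**Figure D4:**
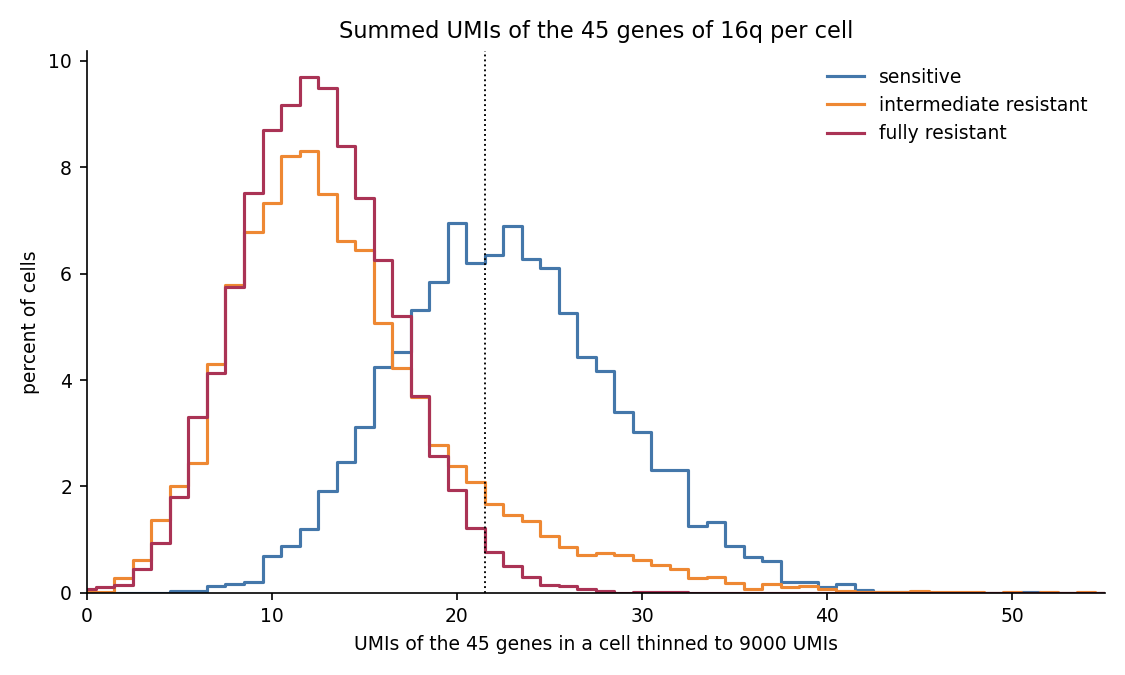
Percent of cells by the summed UMIs of the 45 genes in cells thinned to 9000 UMIs, in the 3 libraries; the dotted line marks 21 UMIs. Fully resistant cells end near that line, sensitive cells centre on it at a median of 22, and 11.8% of intermediate resistant cells lie above it.

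A sum above 21 UMIs, the upper end of the central 95% of fully resistant cells, was found in 56.1% of sensitive cells (54.7 to 57.5), in 11.8% of intermediate resistant cells (10.9 to 12.6) and in 2.03% of fully resistant cells (1.68 to 2.42), with exact binomial intervals. The limit is a point on a continuous range and 10.4% of intermediate resistant cells lay within 2 UMIs of it. Whether the cells above it form a separate class was not tested. The members varied together from cell to cell in the intermediate resistant library. When they were divided in map order into 23 odd and 22 even genes, the covariance of the sums over the product of their means was 2.18% in sensitive, 13.2% in intermediate resistant and 2.41% in fully resistant cells. With 603 other 16q genes the members' covariance was 1.74% in sensitive, 11.5% in intermediate resistant and 2.60% in fully resistant cells. With the genes of 16p it was 1.54%, 0.722% and 2.18% in the same order of states. These sums come from the same cells and share their libraries and depth.

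Cells of each library were then ranked by their UMIs in the 603 other 16q genes, which hold no member, and divided into 5 quintiles. In the intermediate resistant library the members' summed level was 2431 CPM in the top and 1105 CPM in the bottom quintile, a ratio of 2.20. The quintiles between them were, from low to high, at 1302, 1409.5 and 1577 CPM, so the greatest step was the last, up to the top quintile. The top quintile came close to the sensitive library as a whole, which had 2520 CPM. In sensitive cells the same ratio was 1.28 (2779.5 against 2167 CPM) and in fully resistant cells 1.33 (1561 against 1173 CPM). The genes of 16p had ratios of 1.19 in sensitive, 1.07 in intermediate resistant and 1.23 in fully resistant cells between the same quintiles.

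Ribosomal protein genes moved with the ranking, since they took 33.6% of UMIs in the top and 40.3% in the bottom quintile of sensitive cells, and 29.7% in the top and 38.5% in the bottom quintile of fully resistant cells. In intermediate resistant cells the shares were 40.1% in the top and 42.9% in the bottom quintile. When cells were compared on their UMIs without ribosomal protein and mitochondrially encoded genes, the log2 ratio of top over bottom quintile was 0.10 in sensitive, 1.08 in intermediate resistant and 0.10 in fully resistant cells. The median cell of the intermediate resistant library had 15684 UMIs in the top and 16095 UMIs in the bottom quintile.

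Member by member, 28 of the 43 with a CPM of at least 1 were at least 2-fold higher in the top than in the bottom quintile of intermediate resistant cells, and 0 of 43 were in sensitive or in fully resistant cells. The share of all genes past 2-fold between these quintiles is not given here. In intermediate resistant cells the median log2 ratio of the 40 other arms ran from -0.51 to 0.66. Over the 30 members with 20 CPM or more in a library it was 1.26. The greatest ratio was that of NQO1, with 10.5 CPM in the top and 3.07 CPM in the bottom quintile, a ratio of 3.41 (2.55 to 4.62). CMTM3 had 34.2 CPM in the top and 10.2 CPM in the bottom quintile, a ratio of 3.36 (2.86 to 3.95). CRNDE had 204 CPM in the top and 62.4 CPM in the bottom quintile, a ratio of 3.27 (3.06 to 3.48), and its top quintile equalled the 204 CPM of the top quintile of sensitive cells. NAE1 had 99 CPM in the top and 34.8 CPM in the bottom quintile, a ratio of 2.85 (2.61 to 3.11). The same 4 genes had ratios of 1.17, 1.26, 1.39 and 1.49 in sensitive cells. At the other end stood CMIP, with 8.64 CPM in the top and 8.01 CPM in the bottom quintile, a ratio of 1.08 (0.863 to 1.35). SPG7 had 17.9 CPM in the top and 15.4 CPM in the bottom quintile, a ratio of 1.16 (0.996 to 1.36). MBTPS1 had 14.3 CPM in the top and 11.1 CPM in the bottom quintile, a ratio of 1.29 (1.07 to 1.54), and CDK10 had 10.1 CPM in the top and 7.76 CPM in the bottom quintile, a ratio of 1.3 (1.05 to 1.61). These last 4 genes are all among the 10 members nearest to the telomere. KLHL36 and PIEZO1 had too few UMIs for a ratio.

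The position of the genes along the arm was therefore laid beside the ratios. For 97 genes of 16q, each gene was compared between the top and bottom quintile of cells ranked by the remaining 16q genes. The 97 leave out DOK4, MT2A, SLC6A2, COX4I1, RPL13 and the member HSBP1. Then 2 borders were fitted in a random set of 2998 intermediate resistant cells by least squares. This mapping step was chosen after the values were seen. The borders fell between BRD7 and CHD9 and between TERF2IP and CMC2, and the other 2914 cells gave the same borders. They leave 10 genes next to the centromere, 60 in the middle and 27 next to the telomere. Of the 45 members, 2 lie in the first stretch (VPS35 and ORC6), 33 in the middle and 10 next to the telomere (CMIP, MPHOSPH6, HSBP1, MBTPS1, KLHL36, PIEZO1, SPG7, CHMP1A, CDK10 and DEF8).

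In the intermediate resistant cells that did not set the borders, the median log2 ratio of top over bottom quintile was 1.07 next to the centromere, 1.31 in the middle and 0.54 next to the telomere. In sensitive cells the medians were 0.32, 0.35 and 0.42 in the same order of stretches, and in fully resistant cells 0.54, 0.45 and 0.48. With these borders a drop from the middle to the telomeric stretch of this size was seen in the intermediate resistant library only. The borders were fitted in that library alone, which favours a difference between stretches there. All 33 members of the middle stretch had a ratio of at least 1.5 in intermediate resistant cells, from 1.69 to 3.41. Of the 8 telomeric members with a CPM of at least 1, 3 reached 1.5, and the range was 1.08 to 1.86. The share of all genes that reached 1.5 is not given here. VPS35 and ORC6 had ratios of 2.12 and 2.14.

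**Figure D5:**
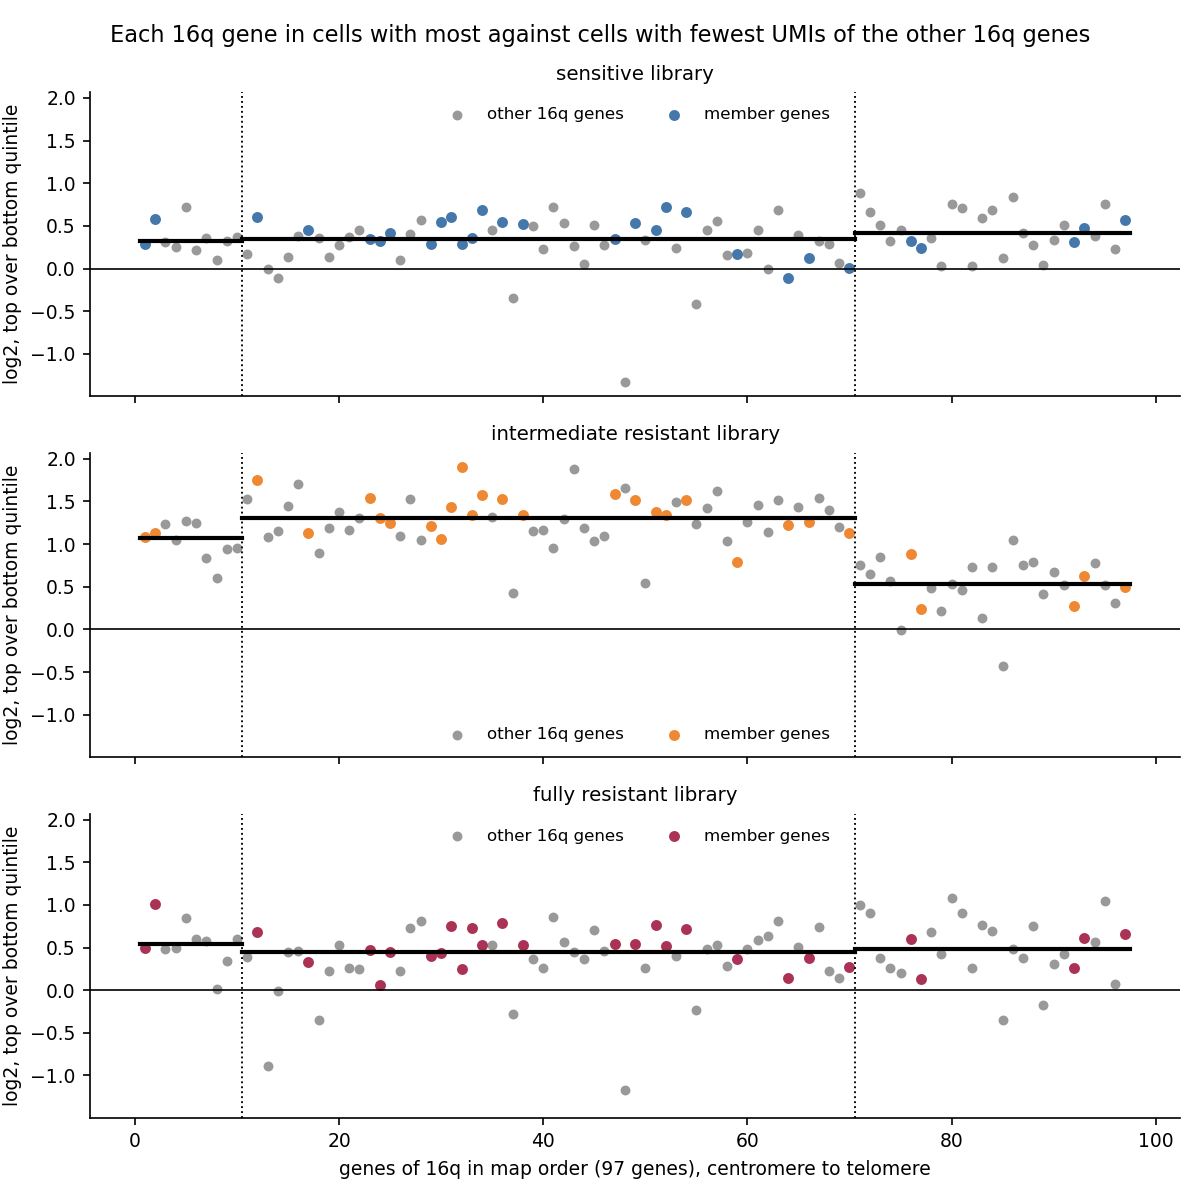
Log2 ratio of top over bottom quintile of cells for 97 genes of 16q in map order, in the second random set of cells of each library, with each gene left out of its own ranking. Black bars are medians of the 3 stretches and dotted lines their borders; in the intermediate resistant library they lie at 1.07, 1.31 and 0.54, and in the others between 0.32 and 0.54.

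The levels of these stretches were also compared between libraries, with the borders taken over from the quintile ratios. No borders were fitted to the ratios between libraries, so where along the arm these change was not tested. In intermediate resistant against sensitive cells the median log2 ratio was -0.38 next to the centromere, -0.63 in the middle and -0.93 next to the telomere. In fully resistant against sensitive cells it was -0.87, -0.83 and -0.93, nearly level along the arm. Between fully resistant and intermediate resistant cells it was -0.59, -0.24 and 0.06. Among the measured members, 0 of 2 next to the centromere, 13 of 22 in the middle and 5 of 6 next to the telomere were at least 1.5-fold lower in intermediate resistant than in sensitive cells. The 6 include HSBP1, which the medians of the stretches leave out. The telomeric stretch as a whole, with its 192 genes below 300 CPM, summed to 2341 CPM in sensitive, 1215 CPM in intermediate resistant and 1205 CPM in fully resistant cells. The middle stretch summed to 4290 CPM, 2774 CPM and 2424 CPM, and the stretch next to the centromere to 702 CPM, 545 CPM and 405 CPM, in the same order of states. From cell to cell in the intermediate resistant library, the centromeric and middle sums had a covariance of 11.8% of the product of their means, against 2.54% between the middle and telomeric sums and -0.351% between the middle stretch and 16p.

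The cells of the intermediate resistant library with more than 21 member UMIs were read for the other 16q genes, which took no part in that choice. In these 695 cells the non-member genes of the middle stretch had 3252 (3219 to 3285) CPM, against 1577 (1568 to 1585) CPM in the remaining 5217 cells. Next to the centromere the values were 619 (605 to 634) CPM in the 695 cells and 379 (375 to 383) CPM in the others. Next to the telomere they were 1209 (1189 to 1229) CPM in the 695 cells and 1023 (1016 to 1029) CPM in the others. Sensitive cells above the same limit had 566 CPM next to the centromere, 2832 CPM in the middle and 2096 CPM next to the telomere. The 695 intermediate resistant cells were at or above the level of these sensitive cells in the 2 stretches nearer to the centromere. They were 1.73-fold below it next to the telomere. The limit took 56.1% of sensitive and 11.8% of intermediate resistant cells, so unlike parts of the libraries are compared. The limited sum also holds telomeric members, which were lower in the intermediate resistant library. The limit itself thus favours intermediate resistant cells high in the other stretches. The 16p genes of the 695 cells had 7857 (7806 to 7908) CPM, against 8091 (8073 to 8110.2) CPM in the others. Ribosomal protein genes took 39.5% of UMIs in the 695 cells and 39.5% in the others, and the median cell had 15807 against 16003 UMIs.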

How the data were processed

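Single-cell RNA was measured with 10x Genomics 3' v2 chemistry in 3 libraries of Kelly cells, per the labels. The authors deposited raw counts, which are UMIs per gene and barcode without any scaling, over 32738 genes and all 737280 barcodes of each library. The submitters' processing notes name bcl2fastq, Cell Ranger and the hg19 build, with versions not given in the sources used here. Groups came from the response to TAE684 in the labels, and 0 deposited per-sample columns were left unused.

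From there, cells were called at 5000 UMIs, 500 genes and 20% mitochondrially encoded UMIs, doublets were kept, and UMIs were summed over cells and divided by the library total. Levels carry exact Poisson intervals, shares of cells exact binomial intervals and ratios exact conditional Poisson intervals, all at 95%. No test was run, because each group was 1 library. Values per cell were taken after thinning every cell once, at random, to 9000 UMIs. The 603 other 16q genes used to rank cells leave out ribosomal protein and metallothionein genes, DOK4, SLC6A2 and genes above 300 CPM. Chromosome, arm and gene order came from GENCODE 29 and approximate centromere positions on another build, through the gene IDs (31111 of 32738 matched), so no coordinates of the files' build are given. The map profile added 0.5 UMIs to each gene.

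The members and the lists were chosen with earlier results of these data known. Values in every library were given for all 45 members, in full for the 8 with most UMIs, the 6 lowest and 6 highest by ratio of fully resistant to sensitive cells, and the 4 with the greatest and least ratio between quintiles. Of the other 16q genes, the 6 lowest and 6 highest by that ratio were named, and 12 more always. CDH1 had 0 UMIs in every library, and TUBB3 stood on 2 rows, of which the row with UMIs is given. Scaling by TMM used edgeR 4.0.16, and all else Python 3.11.15 with numpy 2.4.6, scipy 1.17.1 and pandas 2.3.3. The ratio and cell steps were tested on simulated data with known changes.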

Additional observations from a re-analysis of the deposited data

How the results depend on the processing

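Each group was 1 library, so the intervals say nothing of the spread between cultures. Depth limits members of few UMIs, above all KLHL36 and PIEZO1. Chromosome copies were not analysed here. No paired analysis was possible because the labels give 1 library per state and no replicate number that would tie libraries together. Directions over 9 other scalings and choices of cells were read for all 45 members, with no minimum CPM. All 37 members that differed at least 1.5-fold between fully resistant and sensitive cells kept their direction. So did all 26 between intermediate resistant and sensitive cells and all 10 between fully resistant and intermediate resistant cells. The 37 and the 26 were all lower in the resistant library. Of the 10, 6 were lower in fully resistant cells, and NQO1, CKLF, KIFC3 and PIEZO1 were higher, PIEZO1 with an interval that includes 1. Without a minimum, 5566 of 23086 genes with a UMI were 1.5-fold lower in fully resistant than in sensitive cells. In intermediate resistant against sensitive cells 4844 of 22972 were lower, and in fully resistant against intermediate resistant cells 5218 of 23282. These counts over all genes hold lower genes only.

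Other scalings moved the median of all genes in fully resistant against intermediate resistant cells from 0.17 to 0.02 (TMM), 0.05 (median of ratios) and 0.04 (totals without ribosomal protein and mitochondrially encoded genes), and the 16q values moved with it. For fully resistant over intermediate resistant cells, TMM gave a log2 ratio of the members' sum of -0.31, a members' median of -0.40 and a median of other 16q genes of -0.34, the median of ratios gave -0.28, -0.37 and -0.30, and totals without those genes gave -0.28, -0.37 and -0.34 with 4 members lower. For fully resistant over sensitive cells, TMM gave -0.95, -0.96 and -0.96, the median of ratios gave -0.93 for the sum, and totals without those genes gave -0.91 for the sum and -0.96 for the members' median. For intermediate resistant over sensitive cells the sum was at -0.64, -0.65 and -0.63 in the same order of scalings. Relative to all genes, the members' medians under TMM were -0.95 in fully resistant over sensitive, -0.61 in intermediate resistant over sensitive and -0.42 in fully resistant over intermediate resistant cells. Totals without chromosome 16 gave sums of -0.88 in fully resistant over sensitive and -0.70 in intermediate resistant over sensitive cells. Leaving out the 5% of cells with most UMIs gave -0.87 in fully resistant over sensitive cells. Leaving out cells above the median share of G2 and M phase genes gave -0.92 in fully resistant over sensitive, -0.72 in intermediate resistant over sensitive and -0.20 in fully resistant over intermediate resistant cells.

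The count of lower members follows the limits by construction. In fully resistant over sensitive cells it was 10 of 30 at 2-fold and 9 of 12 at 50 CPM, and the members' median was -0.95 at 5 CPM. In intermediate resistant over sensitive cells it was 4 of 30 at 2-fold, 28 of 30 at a smaller fold limit and 7 of 12 at 50 CPM. In fully resistant over intermediate resistant cells it was 0 at 2-fold, 6 of 23 at the smaller fold limit, 6 of 41 at 5 CPM and 6 of 45 with no minimum. The median of other 16q genes was -0.82 at 50 CPM and -0.62 with no minimum in intermediate resistant over sensitive cells, and -0.31 with no minimum in fully resistant over intermediate resistant cells. A minimum of 20 CPM in the mean of the libraries, chosen after seeing the data, changed none of these counts or medians beyond the tolerance, and borders from the second set of cells were the same.

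The variance of the members' sum over its mean grows with depth by construction. Thinned to 5000 UMIs it was 1.29 in sensitive, 2.18 in intermediate resistant and 1.21 in fully resistant cells, thinned to 12000 UMIs it was 3.76 in intermediate resistant cells, and without thinning it was 2.09, 4.81 and 1.75. Once counting noise was taken off, the coefficient of variation in intermediate resistant cells was 38.9% at 5000 UMIs, 38.4% at 12000 UMIs and 38.6% without thinning. On UMIs without ribosomal protein and mitochondrially encoded genes, the variance over the mean was 1.21 in sensitive and 1.10 in fully resistant cells, and the log2 ratio of top over bottom quintile was 0.10 in each. Leaving out the 3 members with most UMIs gave a variance over the mean of 1.40 in sensitive cells. The log2 ratio of top over bottom quintile in intermediate resistant cells was 1.249 without those 3 members, 1.24 without thinning and 1.24 without cells high in G2 and M phase genes. In all, 53 values of these summaries moved beyond their tolerance and 142 stayed within it. Among the further values, most of them of single members, 236 moved and 1027 stayed. The tolerance was 0.1 for the log2 ratio of top over bottom quintile, 10% for the variance over the mean and 1.5-fold for counts.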

Other observations

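Other chromosome arms varied between intermediate resistant cells together with 16q. Between the top and bottom quintile of these cells by other 16q genes, the median log2 ratio was 0.66 over 42 genes of 20p, -0.51 over 82 genes of 13q and -0.17 over 250 genes of 12q, against a median of 0.13 over 40 arms. In sensitive cells the same 3 arms had medians of 0.30, 0.27 and 0.25, and in fully resistant cells 0.29, 0.33 and 0.30. In the intermediate resistant library the coefficient of variation between cells, with counting noise taken off, was 33.6% on 20p and 31.2% on 13q, against 37.7% for the 45 members and 31.1% for the 603 other 16q genes. Between libraries, 20p had a median log2 ratio of -0.41 in intermediate resistant against sensitive cells and 13q one of -0.34, while 12q was at 0.32. These values were chosen after they were seen, and what lies behind them was not tested.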
